A study of Mus musculus with 24 samples.

Results

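The genes described are InsR, IGF1R and Irs2, the panel's probes for the insulin receptor, the receptor of insulin-like growth factor and an adaptor that both receptors use. They were taken by name and make up 3 of the 96 genes of a NanoString nCounter panel. The panel was measured in regulatory T cells (Tregs) of the visceral adipose tissue (VAT) of 24 male C57/Bl6 mice, each mouse giving 1 sample. Every mouse carried Foxp3-YFP-Cre, an allele that expresses a yellow fluorescent protein and Cre recombinase from the Treg gene Foxp3. The 10 control mice had wild-type insulin receptor alleles and the 14 knockout mice had Insr-fl/fl, in which Cre removes the floxed part of the gene. Per the labels, recombination outside Tregs has been seen with this Cre line. Of the 6 groups, the HFD groups (fed a diet high in fat and sucrose) had 4 controls and 5 knockouts, the NCD groups (fed normal chow) 3 of each genotype, and the aged chow groups 3 controls and 6 knockouts. HFD and NCD mice were started on their food at 3 weeks, kept on it for 13 weeks and were 16 weeks old, while aged mice were 52 weeks old. The study compared the genotypes in these settings because HFD and ageing raise insulin. Sorted cells were CD45+ CD4+ and positive for the fluorescent protein.

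Insulin and insulin-like growth factor bind related receptor tyrosine kinases, which phosphorylate adaptors such as Irs2. The adaptors recruit PI3-kinase, which activates Akt, and Akt keeps Foxo transcription factors out of the nucleus. In liver, Irs2 is a known Foxo target, so that its mRNA is high when insulin signalling is low. T cells raise their insulin receptor on activation, and VAT Tregs are known as tissue-resident cells that depend on Pparg and restrain inflammation in adipose tissue.

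The 250 bases before the start of Irs2 and of Igf1r are shown. Irs2 is the member other than InsR that passed between genotypes in a setting, and both genes are set beside each other throughout. The promoter set used held no window for Insr, so none is shown for it. The sequences are from RefSeq on build GRCm38.p6, read 5′ to 3′ on the strand of the gene, and capitals mark motif matches.
Irs2: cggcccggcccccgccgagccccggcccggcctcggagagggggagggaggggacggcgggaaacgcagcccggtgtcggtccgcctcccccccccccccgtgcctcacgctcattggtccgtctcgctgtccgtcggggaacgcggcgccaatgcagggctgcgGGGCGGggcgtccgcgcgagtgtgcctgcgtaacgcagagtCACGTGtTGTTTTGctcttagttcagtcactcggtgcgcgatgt
Igf1r: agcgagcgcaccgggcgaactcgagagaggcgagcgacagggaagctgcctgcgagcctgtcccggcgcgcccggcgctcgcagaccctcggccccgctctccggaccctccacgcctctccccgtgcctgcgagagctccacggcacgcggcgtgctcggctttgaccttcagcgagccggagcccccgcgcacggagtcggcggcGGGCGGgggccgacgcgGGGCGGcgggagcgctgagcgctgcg
The Irs2 window lies at chr8:11008930-11009179 on the minus strand and the Igf1r window at chr7:67952007-67952256 on the plus strand. The motifs searched on both strands were TGTTTTG, an insulin response element that Foxo factors bind, TGTTTAC, a forkhead core, CACGTG, an E-box, and GGGCGG, a GC box. Irs2 held 1 TGTTTTG, which ended 30 bases before the start, 1 CACGTG just upstream of it and 1 GGGCGG. Igf1r held 2 GGGCGG and none of the other 3 motifs. Among 32851 promoter windows of the same length, 5.56% held TGTTTTG, 6.02% CACGTG, 3.17% TGTTTAC and 32.7% GGGCGG. These matches describe letters and not binding. GC content was 72.8% in the Irs2 window and 77.6% in the Igf1r window, against a median of 52.4% over all windows.

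Values are nCounter signal, that is probe counts that the authors scaled in each sample to a panel total of about 100000. Counts behind them were read from the steps between values, and ran from 11446 per sample in an NCD knockout mouse to 224793 in an HFD knockout mouse, with a median of 49098. All 4 Treg markers on the panel (Foxp3, CD25, Helios and ICOS) were above 0 in every mouse. Their summed signal was 6444 to 16038 over the 15 mice of 16 weeks, 4265 to 7102 in aged controls and 735 to 4370 in aged knockouts. The sum of 3 myeloid markers (Lyz2, Mmp9 and Cxcl2) was 182 to 571 in HFD mice, 1575 to 2630 in NCD controls, 688 to 1485 in NCD knockouts and 1566 to 8265 in aged mice. Igfbp7, the 1 stromal and endothelial marker on the panel, had a signal of 2001 to 8571 in aged knockouts and 202 to 2143 in aged controls. Tcra, the 1 general T cell marker, went down to 7.43 in an aged knockout, and the panel held none of 3 B cell markers. Of 9 markers of VAT Tregs, 5 fell in aged knockouts against aged controls, 1 fell in NCD knockouts and none passed in HFD knockouts, while 20.8%, 2.08% and 2.08% of the panel was called lower in these comparisons. Fewer cells of a type and less RNA per cell cannot be told apart in such samples. Genes were tested with limma on log2(signal + 1), in 1 fit of all 24 mice, with Benjamini-Hochberg adjusted p values over 96 genes and a threshold of 0.05. A change is given below as a difference of mean log2(signal + 1), called a log2 fold change.

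InsR signal was low in all 14 knockout mice, and in each setting the highest knockout lay below the lowest control. HFD controls had InsR signals of 104, 49.8, 89.1 and 125, and HFD knockouts of 8.57, 3.01, 8.25, 5.55 and 1.78. NCD controls had 159, 59.5 and 102.7, and NCD knockouts had 9.82, 4.21 and 17.5. Aged controls had 513, 358 and 294, against a lowest signal of 2.23, a median of 6.75 and a highest of 18.6 in the 6 aged knockouts. Groups without overlap, with knockouts lower, were found for 2.08% of panel genes on HFD, 13.5% on NCD and 17.7% at 52 weeks.

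InsR passed the test in all 3 settings and had the most negative log2 fold change of the 96 genes in each. These values were -3.93 on HFD (SE 0.51, limma adjusted p = 9.49e-06), -3.30 on NCD (SE 0.62, adjusted p = 0.00225) and -5.70 in aged mice (SE 0.54, adjusted p = 3.33e-08). Genes called lower made up 2.08% of the panel on HFD, 2.08% on NCD and 20.8% at 52 weeks. Over the 3 settings with equal weights the value was -4.31 (SE 0.32, adjusted p = 3.62e-10). The added 1 understates these falls, because the knockout signal is low. In counts, knockout mice had 1 to 6 InsR counts (median 3 over 14 mice) and control mice 10 to 480 (median 78 over 10 mice). The weakest probe of each knockout mouse gave 0 to 2 counts, and at most 11 of the 96 genes had fewer counts than InsR in the same mouse. The spread of InsR between knockout mice, as a percentage of the mean, was 56.0% on HFD, 63.4% on NCD and 76.6% at 52 weeks. Counting error alone, as the mean of 1 over the square root of the count, came to 50.2%, 80.5% and 59.5%. With so few counts, changes of InsR between knockout groups are not interpreted. Such values appear below only where a sign turned with the processing, and within the genotype by age and genotype by diet differences.

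Among controls, InsR was highest in aged mice. Its mean signal was 388 ± 112 (SD, n = 3) in aged controls, 106.9 ± 49.7 (n = 3) in NCD controls and 92.0 ± 31.7 (n = 4) in HFD controls. The 3 aged controls lay above all 7 young controls, while the ranges of NCD and HFD controls overlapped. Aged against young chow controls differed by a log2 fold change of 1.92 (SE 0.62, 95% interval 0.63 to 3.21), which missed the threshold (limma adjusted p = 0.0743). Groups without overlap and with aged mice higher were found for 18.8% of panel genes in this comparison. The genotype by age difference was -2.40 (SE 0.82, adjusted p = 0.109), and passed with a pseudocount of 10 (-2.05, adjusted p = 0.0366), with array weights (-2.05, adjusted p = 0.0404) and without aged knockout replicate 5 (-2.68, adjusted p = 0.0382). This difference takes in the change between knockout groups, at 1 to 2 InsR counts per NCD knockout and 2 to 4 per aged knockout. It therefore adds little to the change between control ages. Between control ages 4 of the 96 genes had a larger increase than InsR, and the median of all genes was -0.28. The call depended on the setting. InsR passed with a pseudocount of 10 (adjusted p = 0.00515), after centring on the sample median (0.0135), with array weights (0.0176), with depth as a covariate (0.0275) and by voom on recovered counts (0.0150). HFD against NCD gave -0.18 (SE 0.58, 95% interval -1.39 to 1.02, adjusted p = 0.818) in controls, and its sign turned after centring on the sample median (0.44) and with depth as a covariate (0.080).

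Myeloid markers were set beside InsR in the aged controls. The controls with InsR at 513, 358 and 294 had summed myeloid signals of 8211, 5707 and 2952, in that order, against 1575 to 2630 in NCD controls. HFD controls had sums of 207 to 570, with InsR at 49.8 to 125. Single markers differed within the sum. Lyz2 was 132 to 4806 in aged and 48.2 to 422 in NCD controls, Cxcl2 2609 to 3095 and 1517 to 2195, and Mmp9 147 to 310 and 7.14 to 17.9. The aged control with InsR at 294 had the lowest Lyz2, 132. Of the 3 myeloid markers, Mmp9, a matrix protease, rose in aged controls, and Lyz2 and Cxcl2 did not pass. The aged knockouts had summed myeloid signals of 1566 to 8265, which overlapped those of the aged controls, and had InsR at 2.23 to 18.6. Between the aged genotypes Mmp9 fell in knockouts (log2 fold change -2.55, SE 0.83, limma adjusted p = 0.0303). The part of myeloid cells in the InsR level of aged controls was not tested.

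**Figure D1:**
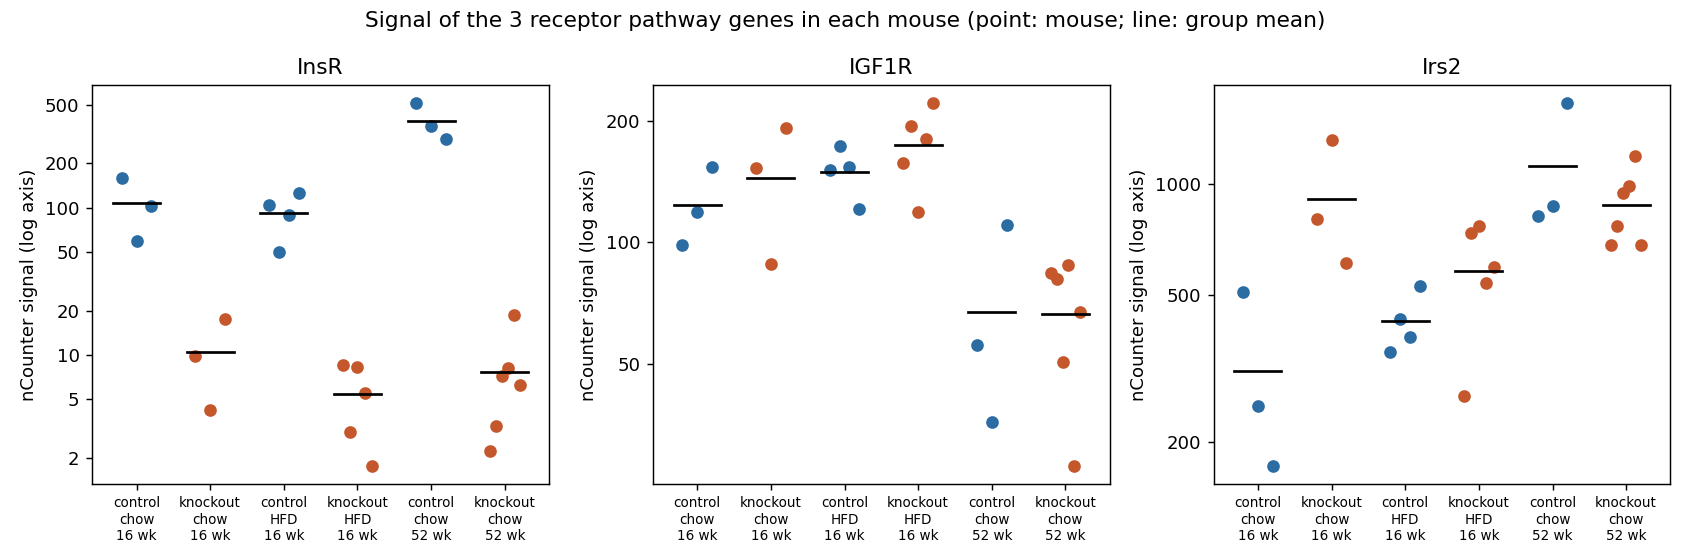
Signal of InsR, IGF1R and Irs2 in each of 24 mice on log axes, with 1 point per mouse, black lines for group means, blue for control and orange for knockout mice. InsR separates the genotypes in each setting, IGF1R is lowest in the groups of 52 weeks, and Irs2 is lowest in chow controls of 16 weeks.

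Irs2 was higher in knockout than in control Tregs of young chow mice. NCD controls had Irs2 signals of 511, 249.9 and 172, and NCD knockouts had 806, 1317 and 612. All 3 knockouts lay above all 3 controls, as did 10.4% of panel genes. The means were 311 ± 177 (SD, n = 3) and 911 ± 365 (n = 3), a log2 fold change of 1.62 (SE 0.46, 95% interval 0.66 to 2.59, limma adjusted p = 0.0384). Genes called higher in this comparison made up 3.12% of the panel. The log2 fold change corresponds to 3.08-fold on the log2(signal + 1) scale, and 3 genes had a larger increase.

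The Irs2 call on chow was lost in 4 alternatives, which were centring on reference genes (log2 fold change 1.24, adjusted p = 0.271), fitting the NCD mice alone (0.178), a replicate block (0.0885) and depth as a covariate (1.5, adjusted p = 0.0796). Omission of 1 mouse ended it too, for replicates 2 (0.166) and 3 (0.227) of the NCD controls, 1 (0.112) and 2 (0.184) of the NCD knockouts and 4 (0.0522) of the HFD knockouts, with log2 fold changes of 1.27 to 1.68. Totals were 11446 to 23790 counts in NCD knockouts and 17371 to 141932 in NCD controls, and the control with the lowest Irs2 signal had the highest total. The part of depth in this difference was not tested beyond the covariate.

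Summed cell markers were lower in the same NCD knockouts. The summed myeloid signal was 1575 to 2630 in NCD controls and 688 to 1485 in NCD knockouts, and Igfbp7 was 476 to 719.6 and 75.8 to 279.6. The sum of 9 VAT Treg markers was 15208 to 17471 in NCD controls and 6140 to 10260 in NCD knockouts, and that of 4 Treg markers 11532 to 16038 and 8772 to 11472. None of these 4 ranges overlapped between the genotypes, and the knockouts were lower in each, as were 13.5% of panel genes. Single markers differed within the sums. From NCD controls to knockouts, mean CD25 was 6046 and 2786, Foxp3 3295 and 3284, Helios 2421 and 2806, and ICOS 1277 and 1655. In the same order mean Cxcl2 was 1744 and 837, Lyz2 232 and 147, and Mmp9 12.6 and 62.9. Among the 9 VAT Treg markers, the largest changes in mean signal were of Il1rl1, at 8741 and 4242, and Klrg1, at 2397 and 270. IL-10 was 198 and 175. Irf4 alone had a higher mean in knockouts, at 343 and 471. Tcra overlapped, at 125 to 1767 in NCD controls and 253 to 1066 in NCD knockouts. Gene by gene, limma called 1 of the 9 VAT Treg markers lower, as 2.08% of the panel, and no other marker of these lists passed. The part of these markers in the Irs2 difference was not tested.

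On HFD and in aged mice the genotypes overlapped in Irs2. HFD controls had Irs2 signals of 350.3, 431, 386 and 529, and HFD knockouts of 266, 739.7, 769, 541 and 596. Of the 5 HFD knockouts 4 lay above every control and 1 below every control. The log2 fold change was 0.38 (SE 0.38, 95% interval -0.41 to 1.17, limma adjusted p = 0.687). Aged controls had 821, 874 and 1662, and aged knockouts had a lowest signal of 683, a median of 858 and a highest of 1196. Their log2 fold change was -0.30 (SE 0.40, 95% interval -1.14 to 0.53, adjusted p = 0.597). It turned to 0.57 after centring on the sample median and to 0.022 without aged control replicate 3. Of the 4 Treg markers, 3 fell in aged knockouts (Foxp3, CD25 and Helios) and Igfbp7 rose, where 20.8% of the panel was called lower and 3.12% higher. Their part in the aged comparison was not tested. Over the 3 settings with equal weights the knockout effect was 0.57 (SE 0.24) and did not pass (adjusted p = 0.14), in a comparison that called 5.21% of panel genes. It passed after centring on the sample median (0.95, adjusted p = 0.0214) and with array weights (0.65, adjusted p = 0.0333).

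With age, Irs2 rose in control Tregs. The aged controls (821 to 1662) lay above all NCD controls (172 to 511), with means of 1119 ± 471 (SD, n = 3) and 311 ± 177 (n = 3). The log2 fold change was 1.92 (SE 0.46, 95% interval 0.95 to 2.88, limma adjusted p = 0.0116), close to the 1.92 of InsR in the same mice. Genes called higher made up 3.12% of the panel in this comparison, and groups without overlap and with aged mice higher 18.8%. Fitting the chow controls alone ended the call (adjusted p = 0.0847), as did leaving out NCD control replicate 2 (0.0579) or 3 (0.0817) or aged control replicate 3 (0.0579). The aged controls with Irs2 at 821, 874 and 1662 had summed myeloid signals of 8211, 5707 and 2952, in that order. The sum of 4 Treg markers was 4265 to 7102 in aged controls and 11532 to 16038 in NCD controls. The part of these cells in the Irs2 level of aged controls was not tested.

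In knockouts Irs2 was about as high at 16 weeks as at 52 weeks. The NCD knockouts (612 to 1317) and aged knockouts (683 to 1196) had means of 911 ± 365 (SD, n = 3) and 878 ± 203 (n = 6). The log2 fold change was -0.01 (SE 0.40, 95% interval -0.84 to 0.82, limma adjusted p = 0.98). After centring on the sample median it was 0.75 and after centring on reference genes 0.57. The median of all genes was -0.82 in this comparison. The difference between the age effects of the genotypes was -1.93 (SE 0.61, 95% interval -3.20 to -0.65) and did not pass (adjusted p = 0.0839). By limma 0 of 96 genes passed for this interaction, 26 (27.1%) had an unadjusted p under 0.05, and voom called 4. For Irs2 the difference passed with a pseudocount of 10 (adjusted p = 0.0496), with array weights (0.0246), by voom (0.0406) and without aged knockout replicate 5 (0.0470).

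Irs2 did not pass for diet in either genotype, and its values had opposite signs. HFD against NCD gave a log2 fold change of 0.58 (SE 0.43, limma adjusted p = 0.362) in controls and -0.66 (SE 0.42, adjusted p = 0.285) in knockouts. The genotype by diet difference was -1.24 (SE 0.60, 95% interval -2.49 to 0.00, adjusted p = 0.374). For this interaction too, limma called 0 of 96 genes, with 12 (12.5%) at an unadjusted p under 0.05 and 2 by voom. From the highest to the lowest mean, the order of Irs2 was aged controls, NCD knockouts, aged knockouts, HFD knockouts, HFD controls and NCD controls, and the ranges of all neighbours in this order overlapped.

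IGF1R did not pass between genotypes in any setting. HFD controls had IGF1R signals of 151, 173, 153 and 121, and HFD knockouts of 157, 193, 119, 179.6 and 221. NCD controls had 98.3, 119 and 154, and NCD knockouts had 152, 88.4 and 192. Aged controls had 55.6, 35.8 and 110.3, and aged knockouts ran from 27.9 to 87.7 with a median of 74.0. The genotypes overlapped in all 3 settings. The log2 fold changes were 0.20 on HFD (95% interval -0.59 to 0.98), 0.17 on NCD (-0.78 to 1.13) and 0.04 in aged mice (-0.79 to 0.87), with limma adjusted p values of 0.825, 0.967 and 0.946. The mean over the settings was 0.14 (SE 0.24, 95% interval -0.36 to 0.63). After centring on reference genes the NCD and aged values were -0.21 and -0.13. The aged value also turned negative without aged knockout replicate 1, 2 or 4 or aged control replicate 1 or 2 (-0.33 to -0.022), and the NCD value without NCD knockout replicate 3 (-0.067).

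In knockouts, IGF1R was lower in aged than in young chow mice. The 6 aged mice lay below all 3 young mice, with means of 66.4 ± 23.3 (SD, n = 6) and 144 ± 52.4 (n = 3), and IGF1R fell by 1.13 on the log2 scale (SE 0.40, limma adjusted p = 0.0238). This comparison called 41.7% of the panel lower, and 24% had aged mice below all young mice. The median of all genes was -0.82, and 38 of the 96 genes had a more negative value than IGF1R. After centring on the sample median the value was -0.37 (adjusted p = 0.556), and after centring on reference genes -0.55 (0.282). The call was also lost with the 2 groups fitted alone (0.0734), with a replicate block (0.0695), by voom (0.0682) and without NCD knockout replicate 1 (0.0802) or 3 (0.122). In controls IGF1R was 67.2 ± 38.6 (n = 3) in aged and 124 ± 27.9 (n = 3) in young mice, with overlapping ranges. The difference of -1.0 did not pass (SE 0.46, adjusted p = 0.163). The genotype by age difference was -0.14 (95% interval -1.40 to 1.13), and its sign turned with centring on the sample median (0.51) and with centring on reference genes (0.077).

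Treg markers were set beside IGF1R. All 4 fell in aged against young knockouts, where 41.7% of the panel was called lower, and 1 of 4, ICOS, fell in aged against young controls, where 2.08% of the panel was called lower. Aged knockouts had a lower Treg sum (median 1710) than aged controls (median 5912), while the mean IGF1R signals were 66.4 and 67.2. Counts of IGF1R were 6 to 113 in aged knockouts, 20 to 52 in aged controls and 20 to 497 in the young groups. The part of Treg content in the IGF1R level was not tested. HFD against NCD gave log2 fold changes of 0.28 (SE 0.43) in controls and 0.31 (SE 0.41) in knockouts, neither of which passed, and the control value was -0.056 with reference genes as the centre. HFD knockouts had the highest mean of the 6 groups and aged knockouts the lowest, and all neighbours in the order overlapped.

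**Figure D2:**
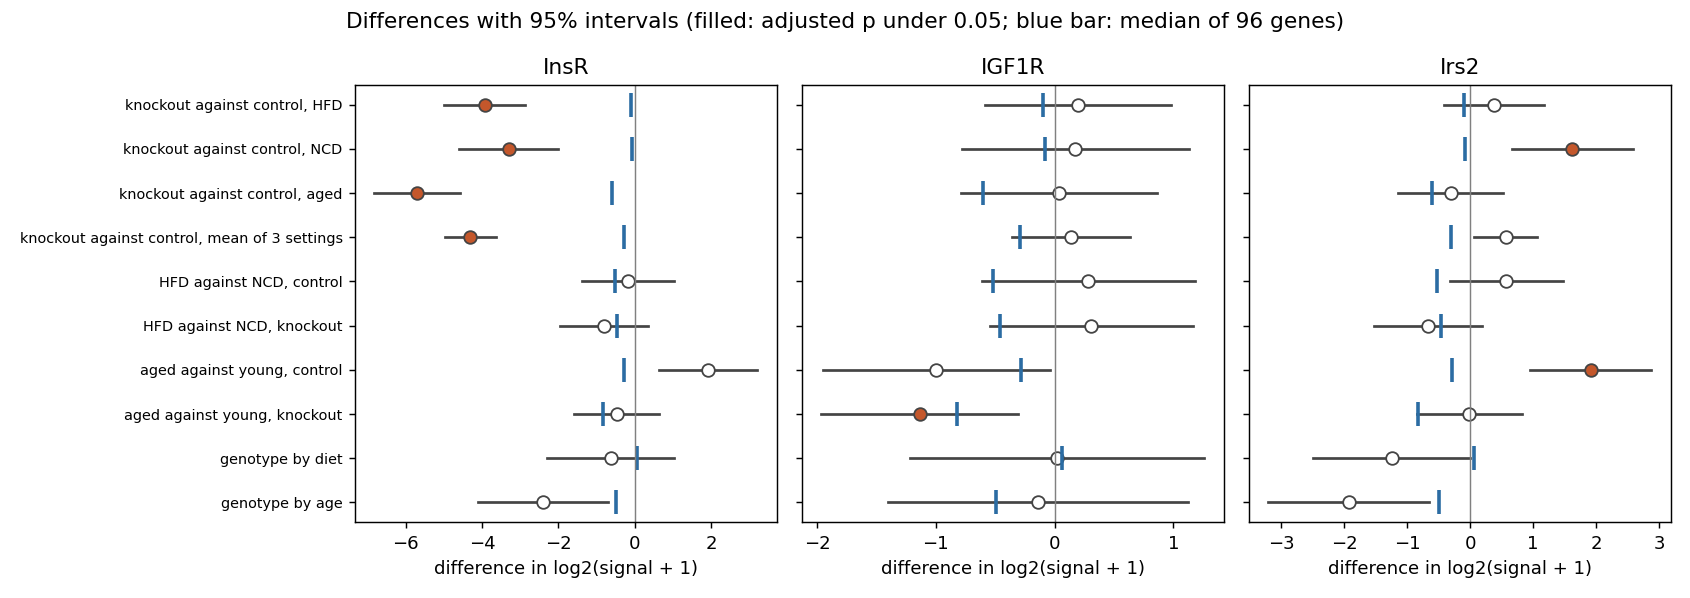
Differences in log2(signal + 1) for the 3 genes in 10 comparisons, with limma 95% intervals, filled points for adjusted p under 0.05 and blue bars for the median of 96 genes. InsR is far below the panel median in the genotype comparisons, and the IGF1R values lie between -1.13 and 0.31. Irs2 is above the panel median in all comparisons but HFD against NCD in knockouts, genotype by diet and genotype by age. It passes for genotype on NCD and for age in controls.

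**Figure D3:**
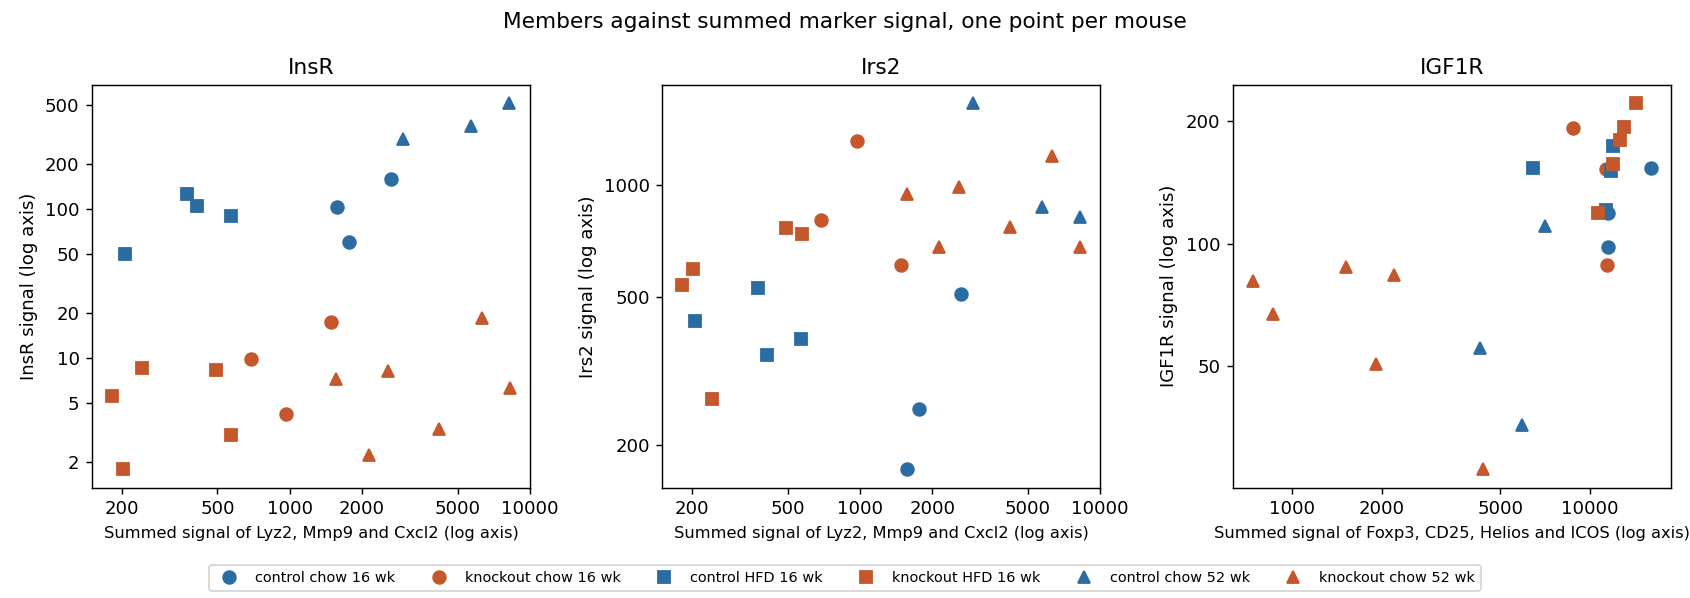
Signal of InsR and Irs2 against the summed signal of 3 myeloid markers, and of IGF1R against that of 4 Treg markers, 1 point per mouse on log axes. Aged knockouts reach summed myeloid signals up to 8265 with InsR at 2.23 to 18.6, and the mice with the lowest Treg sums, down to 735, are aged knockouts.

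Ratios of the signals of 2 members within a mouse were compared between groups, a step added after the data were seen. The ratios of signal do not depend on how the sample was scaled. The exact permutation tests used differences of log2(signal + 1), in which the added 1 leaves some dependence on scaling. The signal of Irs2 over that of IGF1R was 1.12 to 5.19 in NCD controls and 14.8 to 24.4 in aged controls, a log2 difference of 2.91 (SE 0.68). The ratio InsR over IGF1R was 0.50 to 1.61 in NCD controls and 2.67 to 10 in aged controls, a log2 difference of 2.92 (SE 0.79). In both the aged controls lay above all young controls, and the two-sided exact p was 0.10, the smallest that 3 against 3 mice allow. The ratio InsR over Irs2 was 0.24 to 0.60 in NCD controls and 0.18 to 0.63 in aged controls, a log2 difference of 0.01 (SE 0.66). Irs2 over IGF1R was 3.18 to 14.9 in NCD knockouts, which overlapped the NCD controls (log2 difference 1.45, SE 0.91, exact permutation p = 0.20). None of the 11 ratio comparisons passed after adjustment, with adjusted exact permutation p values from 0.393 to 1.

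**Figure D4:**
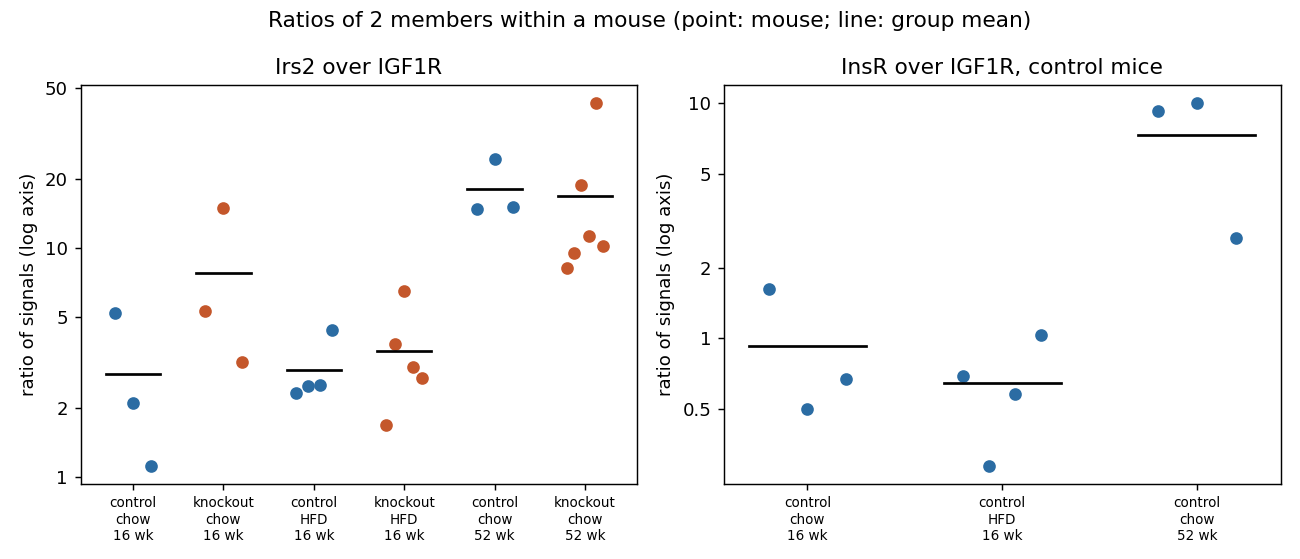
Ratios of Irs2 to IGF1R in all 6 groups and of InsR to IGF1R in the 3 control groups, 1 point per mouse on log axes, with black lines for group means. Group means of both ratios are highest at 52 weeks, while single mice overlap in knockouts, where Irs2 over IGF1R is 8.13 to 42.8 in aged and 3.18 to 14.9 in NCD mice. The 42.8 is aged knockout replicate 5, where IGF1R rests on 6 counts, and the other aged knockouts have 8.13 to 18.7.

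No relation between members across mice passed its permutation test. Over 24 mice, the deviations of IGF1R and Irs2 from their group means had Pearson's r = -0.24 (permutation p = 0.296) and Spearman's rho = -0.23 (permutation p = 0.363). In the 10 controls r was 0.12 for IGF1R with Irs2, -0.41 for InsR with IGF1R and 0.17 for InsR with Irs2, with rho of -0.02, -0.49 and 0.07. Permutation p values for r in the controls were 0.864, 0.201 and 0.763, and over the 4 relations the adjusted values were 0.593 to 0.864. Without the 2 mice farthest from the median of IGF1R, r of IGF1R with Irs2 in controls was -0.74 (adjusted permutation p = 0.498), so the value of 0.12 rested on those mice. The spread of Irs2 between mice of a group was 18.3% to 57.0% of its mean, against 4.28% to 10.2% for counting error. For IGF1R it was 14.4% to 57.4%, against 8.83% to 20.7%.

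By a fixed rule, the panel genes with the most similar pattern were taken by Pearson's r of log2 values, as a description. Over the 6 group means, those of IGF1R were Lrrc32 (r = 0.98), which presents latent TGF-beta on Tregs, Lrig1 (0.97), an inhibitor of growth factor receptors, and ICOS (0.97), a costimulatory receptor. Those of Irs2 were Lmna (0.91), which encodes lamin A/C, Mmp9 (0.74) and Irf4 (0.73), a factor of effector Tregs. Over the 10 control mice, those of InsR were Mmp9 (0.86), Lmna (0.84) and Mmp12 (0.78), a macrophage protease. The points share groups, depth and the scaling to 1 panel total. In the same 10 mice r of InsR was 0.74 with Irs2 and -0.82 with IGF1R, against 0.17 and -0.41 with group means removed. Lmna was picked for its likeness to Irs2 over these group means, so its rise where Irs2 rose is no separate support. Its log2 fold changes were 2.28 (SE 0.48, limma adjusted p = 0.0050) in NCD knockouts and 4.62 (SE 0.48, adjusted p = 2.32e-07) in aged controls. Genes called higher made up 3.12% of the panel in each of these comparisons.

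The panel held 5 of the 49 genes listed for the insulin and IGF pathway, the other 2 being Igfbp7 and Trib1. Igfbp7 is a secreted IGF-binding protein of stromal and endothelial cells and Trib1 a pseudokinase of the tribbles family. In knockout against control Tregs, 0 of 5 rose and 1 fell on HFD, 1 rose and 1 fell on NCD, and 2 rose and 1 fell in aged mice. The 1 that fell was InsR each time, the deleted gene, whose fall is given by the design. The 1 that rose in NCD knockouts was Irs2. The medians of the 5 were -0.11, 0.08 and 0.04 log2, against -0.10, -0.08 and -0.60 over all genes. The 2 that rose in aged knockouts were Igfbp7 (log2 fold change 2.69, limma adjusted p = 0.0303) and Trib1 (1.16, adjusted p = 0.0257), with values of -0.11 and -0.15 on HFD and -2.06 and 0.08 on NCD that did not pass. In aged against young mice 1 of 5, Irs2, rose in controls, and in knockouts Igfbp7 and Trib1 rose and IGF1R fell. No member of the list passed for HFD against NCD in either genotype, where 20.8% of panel genes were called in controls and 17.7% in knockouts. Between genotypes, 0% of the panel was called higher and 2.08% lower in HFD knockouts. The shares were 3.12% higher and 2.08% lower in NCD knockouts, and 3.12% higher and 20.8% lower in aged knockouts. With age, 3.12% of the panel was called higher in controls, while 12.5% was called higher and 41.7% lower in knockouts.

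Of 7 measured genes known as Foxo targets in T cells or liver, 2 rose and 1 fell in NCD knockouts. In this comparison 3.12% of the panel was called higher and 2.08% lower. The 2 that rose were Irs2 and Ccr7, a chemokine receptor for homing to lymph nodes (log2 fold change 2.81, SE 0.69, limma adjusted p = 0.0151). The 1 that fell was InsR, the deleted gene, whose fall in each setting is given by the design. On HFD 1 of 7 fell, InsR, and in aged knockouts 3 fell, namely InsR, Foxp3 and IL-10, where 2.08% and 20.8% of the panel was called lower. Foxp3 is also in the Treg list and IL-10 in the VAT Treg list. The list medians were 0.07, 0.03 and -1.26 log2 in NCD, HFD and aged mice, against -0.08, -0.10 and -0.60 over all genes. In controls, 2 of the 7 rose and 1 fell from NCD to HFD. Ccr7 rose and IL-10 fell there, and 3.12% of the panel was called higher and 17.7% lower. With age 1 of the 7 rose in controls, Irs2, where 3.12% of the panel was called higher. In aged against young knockouts 5 of 7 fell and none rose, while 41.7% of the panel was called lower, 12.5% was called higher and all 4 Treg markers fell. The other hormone receptors on the panel, those of leptin and adiponectin (LeptinR, AdipoR1 and AdipoR2), did not pass between genotypes in any setting. Of these 3, AdipoR2 and LeptinR fell in aged against young knockouts (log2 fold changes -1.11 and -2.15, adjusted p = 0.00572 and 0.0263), where 41.7% of the panel was called lower and the median of all genes was -0.82. LeptinR signal was low in both groups, at 17.5 to 37.9 in NCD knockouts and 1.49 to 18.9 in aged knockouts. InsR had 4.21 to 17.5 and 2.23 to 18.6 there, so the fall of LeptinR is not interpreted either.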

How the data were processed

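Sorted VAT Tregs were lysed and 96 genes were counted on an nCounter SPRINT Profiler, per the labels' protocols. The deposited signal values are linear and were scaled by the authors to a panel total of 100000 in 12 samples and above it, up to 126723, in the other 12. Every control mouse was above 100000, while most knockout mice were at it. Totals were 109979, 103368 and 126723 in NCD controls and 100000 to 100118 in NCD knockouts. The unit was read from the values, and no source used here gives the background correction or software. Dividing by each sample's step between values gave whole counts (within 0.02) for 2302 of 2304 values and for all 72 of the 3 genes. Intervals and counting errors cover counting or the spread between mice only.

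limma 3.58.1 in R 4.3.3 fitted the 6 group means to log2(signal + 1) (lmFit, contrasts.fit, eBayes, two-sided) for 10 contrasts, adjusted over the 96 genes, and no gene or mouse was left out. The code was tested on simulated data. Permutation tests used scipy 1.17.1 (exact) or 100000 resamples within groups. Alternatives were pseudocounts of 0.1 and 10, leaving out the 24 lowest genes, centring (sample median, or 4 reference genes), a single panel total, fitting only the groups compared, array weights, a variance trend, a replicate block, a depth covariate and leaving out each mouse. voom and ratios within a mouse were added after the data were seen, voom in place of a planned count-model fit. Named genes were the 3 members, the 3 panel genes most alike in pattern to each, and lists of the insulin and IGF pathway, other hormone receptors, Foxo targets, and markers of Tregs, VAT Tregs, T cells, myeloid cells, stromal cells and B cells. The members and lists were chosen with earlier results of these data known. Of the panel names, 88 matched a mouse symbol, 4 a synonym and 3 were matched by hand. Same-numbered mice did not deviate together (correlations of -0.25 to 0.20 over genes), so replicate numbers were not treated as pairs.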

Additional observations from a re-analysis of the deposited data

Results flagged for a closer look

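InsR in aged knockout replicate 5 had a signal of 18.6, while the other 5 aged knockouts had 2.23 to 8.16, a gap of 0.638 of the group's range against a critical value of 0.625. It rests on 4 counts at a total of 21487. Chance flags about 1 in 20 such groups, and 9 were examined.

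Irs2 on HFD against NCD had a log2 fold change of 0.58 in controls and -0.66 in knockouts. Every HFD control lay above the mean of NCD controls and every HFD knockout below the mean of NCD knockouts. The test of the difference gave -1.24 (SE 0.60, limma adjusted p = 0.374) and did not pass.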

How the results depend on the processing

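InsR passed between genotypes in each setting and in their mean under every alternative that held it and without each of 24 mice, with log2 fold changes of -5.93 to -2.47 over the alternatives. InsR is among the 24 lowest genes, so that alternative gave it no value. The planned count-model fit was not run, and voom on the recovered counts was used instead.

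Calls of Irs2, IGF1R and InsR that were lost or gained are given in order of setting. Centring on the sample median gave IGF1R -0.37 for age in knockouts, InsR 2.04 for age in controls and Irs2 0.95 for the mean genotype effect. Centring on reference genes gave IGF1R -0.55 for age in knockouts and Irs2 1.24 for genotype on NCD. Array weights gave InsR 1.92 for age in controls, InsR -2.05 and Irs2 -1.82 for genotype by age, and Irs2 0.65 for the mean effect. Pseudocount 10 gave InsR 1.82 for age in controls, and InsR -2.05 and Irs2 -1.89 for genotype by age. The depth covariate gave InsR 2.02 for age in controls and Irs2 1.5 for genotype on NCD. voom gave InsR 2.07 for age in controls, IGF1R -0.99 for age in knockouts and Irs2 -2.22 for genotype by age. Fits of the groups compared gave IGF1R -1.13, Irs2 1.92 for age in controls and Irs2 1.62 on NCD. The replicate block gave IGF1R -1.08 for age in knockouts and Irs2 1.62 on NCD (adjusted p = 0.0885), while replicate numbers do not mark pairs. The block ended no other call of the 3 genes.

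Signs turned only in values that had not passed. On the sample median, IGF1R was 0.51 for genotype by age and -0.17 for genotype by diet, InsR 0.44 for diet in controls and 0.29 for age in knockouts, and Irs2 0.75 for age in knockouts and 0.57 for aged genotypes. On reference genes, IGF1R was -0.056 for diet in controls, 0.077 for genotype by age, -0.21 on NCD and -0.13 in aged mice, InsR 0.11 for age in knockouts and 0.070 for genotype by diet, and Irs2 0.57 for age in knockouts. With depth, IGF1R was -0.063 for diet in knockouts and -0.24 for genotype by diet. InsR was then 0.080 for diet in controls, 0.084 in knockouts, 0.075 for age in knockouts and 0.0044 for genotype by diet, and Irs2 0.13 for age in knockouts. IGF1R was 0.16 for genotype by age with array weights, and for genotype by diet -0.13 with a single panel total and -0.067 by voom. The relation of IGF1R with Irs2 over 24 mice was 0.0083 on reference genes and 0.062 on the sample median, that of InsR with Irs2 in controls -0.27 on the sample median, and that of IGF1R with Irs2 in controls -0.74 without the 2 farthest mice. The cause was not tested.

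Counts of genes called differed by over 1.5 times as follows. For genotype on HFD (2 genes) they were 5 with array weights, 4 by voom and 1 with the groups compared, the block or without low genes. For genotype on NCD (5) they were 8 with array weights and 3 on reference genes or with the block. For aged genotypes (23) they were 46 with array weights and 5 with the groups compared. For the mean effect (5) they were 21 with array weights, 15 with depth, 10 with the block, 8 on the sample median, with pseudocount 10 or without low genes, and 1 on reference genes. For diet in knockouts (17) they were 28 with array weights, 8 on reference genes and 1 with depth. For age they were 19 with array weights and 10 by voom in controls (5), and 33 on reference genes and 32 on the sample median in knockouts (52). Genotype by age (0) gave 23 with array weights, 8 with pseudocount 10, 4 by voom, 3 with the groups compared, with a variance trend or without low genes, and 1 on the sample median or a single panel total. Genotype by diet (0) gave 7 with array weights, 2 by voom or a single panel total, and 1 with pseudocount 10, depth, a variance trend, the sample median or without low genes.

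Leaving out 1 mouse at a time, the log2 fold changes that lost or gained a call or turned sign ran as follows. For genotype, IGF1R ran from -0.067 to 0.49 on NCD and -0.33 to 0.47 in aged mice, and Irs2 from 1.27 to 2.06 on NCD and -0.49 to 0.022 in aged mice. For diet, InsR ran from -0.54 to 0.16 in controls and IGF1R from -0.0059 to 0.55 in knockouts. For age, InsR ran from 1.56 to 2.26 and Irs2 from 1.57 to 2.35 in controls, and IGF1R from -1.45 to -0.89 and Irs2 from -0.26 to 0.29 in knockouts. For genotype by diet IGF1R ran from -0.29 to 0.27, and for genotype by age InsR from -2.88 to -1.97, IGF1R from -0.51 to 0.29 and Irs2 from -2.36 to -1.58. The counts of genes ran from 1 to 3 for genotype on HFD, 2 to 7 on NCD, 9 to 32 in aged mice and 1 to 12 for their mean, 7 to 20 for diet in knockouts, 2 to 9 for age in controls, 0 to 3 for genotype by diet and 0 to 7 for genotype by age. InsR in knockouts, at 1 to 6 counts, is the value that depth limits most.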
